A study of Mus musculus with 6 samples.

Results

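The enzymes of the mevalonate arm of cholesterol synthesis were followed in cultured mdx myoblasts given PSB-KD107 or vehicle. The 8 members, Acat2, Hmgcs1, Mvk, Pmvk, Mvd, Idi1, Fdps and Ggps1, were taken by name, as enzymes of the route, from the 47069 genes of the count table. All 8 passed the filter on low counts, as did 14165 genes in all. The list does not cover every enzyme of the route.

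Myoblasts are the proliferating progenitors of muscle fibers. Both groups were made of muscle stem cells sorted from mdx mice, which lack dystrophin and serve as a model of Duchenne muscular dystrophy, and expanded in growth medium with serum and FGF2. One group received PSB-KD107 at 10 μM, a synthetic agonist of the receptor Gpr18, and the other received vehicle. According to the sample records the treatment lasted 2 days, whereas the methods of the study give an overnight treatment. The methods state that the myoblasts came from 3 different mice, and the sample records do not say which libraries share a mouse. There were 3 RNA-seq libraries per group, with no group of healthy cells and no second dose.

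The mevalonate arm turns acetyl-CoA into isoprenoid diphosphates. Acetyl-CoA units are condensed to HMG-CoA, mevalonate is made from it and phosphorylated, and its decarboxylation gives isopentenyl diphosphate, the building block of all isoprenoids. Farnesyl diphosphate is the branch point. From there the carbon goes to sterols, to ubiquinone and dolichol, or to the lipid anchors of small GTPases and lamins. In mammalian cells the genes of the route are classically switched on by the transcription factor SREBP-2 when membrane sterol is low.

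The table gave between 30917613 and 48756794 counts per library, and vehicle 1 and PSB-KD107 1 were the deepest libraries of their groups. Libraries are numbered 1, 2 and 4 in the table and 1, 2 and 3 in the sample records, so each library numbered 4 was tied to its group but to no single record. Values are given as CPM, counts scaled to the library total with TMM factors, and 3 counts correspond to between 0.0596 and 0.0962 CPM. This floor covers counting error only. The myoblast markers summed to between 6823 and 7186 CPM in vehicle and between 6717 and 7150 CPM with PSB-KD107. Markers of differentiated muscle were also abundant, at 27268 to 30652 CPM in vehicle and 21518 to 25498 CPM with PSB-KD107, so that the groups did not overlap. Most of this sum was Myh3, with 17794 ± 569 CPM in vehicle and 13141 ± 1379 CPM with PSB-KD107 (SD, n = 3). The groups overlapped for Acta1, Ckm and Tnnt3. Members of these lists differed in direction, with 3 of 9 myoblast markers and 3 of 5 markers of differentiated muscle at higher means with PSB-KD107. Those at an unadjusted p-value under 0.05 in edgeR were all lower, namely Pax7 of the 9 and Myog and Myh3 of the 5, against 2.93% of all genes. After adjustment edgeR called none (adjusted p = 0.209, 0.469 and 0.493). DESeq2 called Pax7 (adjusted p = 6.65e-04) and Myh3 (0.00492) but not Myog (0.124), against 0.93% of all genes called lower. By p-value in edgeR, Pax7 ranked 110 among all genes tested. Myog, a regulator of differentiation, had 2134 ± 82.8 CPM in vehicle and 1521 ± 301.3 CPM with PSB-KD107 (SD, n = 3), and Pax7, the marker of muscle stem cells, had 59.5 ± 9.47 and 32.0 ± 4.55 CPM. In the same lists Myf5 had a higher mean with PSB-KD107, at 14.5 ± 9.54 and 24.0 ± 18.5 CPM. So did Ckm, at 350.4 ± 69.6 and 440.1 ± 328.2 CPM, and the groups overlapped for both. For Ckm the higher mean rested on PSB-KD107 4, with 817.6 CPM. PSB-KD107 1 and 2, with 221.7 and 281.2 CPM, lay below all vehicle libraries. Acta1 and Tnnt3, the other markers of differentiated muscle with higher means, each had a log2 fold change of 0.007. The part of these marker differences in the results for the mevalonate enzymes was not tested, and in bulk RNA fewer cells of a type and less RNA per cell cannot be told apart. Summed markers of other cell types stayed at or below 10.7 CPM in every library, with Adgre1 and Plin1 at 0.

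The upstream sequences of 4 members are shown, with matches to the binding motif of SREBP and to those of its usual partners marked. Of these stretches, that of Hmgcs1 alone holds the SREBP motif. RefSeq promoter windows, which run from 250 bases before to 50 bases after a start site on GRCm38.p6, were matched by symbol for 7 of 8 members, with 8 windows in all since Pmvk has 2 starts. Only the bases outside annotated exons are printed, 5′ to 3′ on the strand of the gene. Capitals mark matches on either strand to TCACNCCAC (a sterol regulatory element), CCAAT (the CCAAT box, written ATTGG on the other strand) and GGGCGG (the GC box, written CCGCCC on the other strand).
Hmgcs1, chr13:119690101-119690350, plus strand: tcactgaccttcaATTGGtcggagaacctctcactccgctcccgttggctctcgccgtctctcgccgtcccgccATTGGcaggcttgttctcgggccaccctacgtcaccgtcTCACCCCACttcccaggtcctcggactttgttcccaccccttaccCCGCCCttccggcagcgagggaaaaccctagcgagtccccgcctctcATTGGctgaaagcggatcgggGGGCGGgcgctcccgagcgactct
Mvk, chr5:114444061-114444268, plus strand: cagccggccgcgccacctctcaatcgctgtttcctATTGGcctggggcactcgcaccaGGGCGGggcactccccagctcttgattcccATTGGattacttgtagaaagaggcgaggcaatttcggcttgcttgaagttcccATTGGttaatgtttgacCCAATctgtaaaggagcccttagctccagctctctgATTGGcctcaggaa
Mvd, chr8:122443423-122443672, minus strand: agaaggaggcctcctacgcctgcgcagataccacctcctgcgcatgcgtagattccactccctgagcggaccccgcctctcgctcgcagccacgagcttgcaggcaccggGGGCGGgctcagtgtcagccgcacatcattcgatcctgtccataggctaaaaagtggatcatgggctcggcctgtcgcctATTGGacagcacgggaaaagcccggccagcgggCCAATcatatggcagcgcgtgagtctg
Ggps1, chr13:14063490-14063603, minus strand: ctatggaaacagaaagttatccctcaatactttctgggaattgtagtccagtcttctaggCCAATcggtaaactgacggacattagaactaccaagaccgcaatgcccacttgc

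Among the members, TCACNCCAC was found in the Hmgcs1 window alone, starting at position -137 from the start site, and 1.24% of the 32851 windows of all genes hold it. A longer form of that element, held by 0.0913% of all windows, was in none of the members' windows. CCAAT occurred in 6 of the 8 windows, those of Hmgcs1, Mvk, Mvd, Idi1, Ggps1 and the first start of Pmvk, against 37.4% of all windows. The Mvk window had 5 matches and the Hmgcs1 window 4, while Ggps1 had 3, of which 1 lies in the printed stretch. GGGCGG was in 5 of the 8 windows, those of Acat2, Hmgcs1, Mvk, Mvd and Idi1, against 35.7% of all windows. The E-box CACGTG, held by 7.15% of all windows, was in none. These matches are letters in a short window and do not show binding. The stretch printed for Mvk is shared with Mmab, a gene of vitamin B12 metabolism that is transcribed the other way. Read on the minus strand, the same bases cover positions -241 to -34 from the Mmab start.

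Transcripts of 7 of the 8 enzymes were more abundant with PSB-KD107, by 2.22 to 3.82 times, and that of Ggps1 was at the same level in both groups to within the error. Together the 8 genes took 673 CPM in vehicle 1, 349 CPM in vehicle 2 and 341 CPM in vehicle 4, against 1437, 1306 and 918 CPM in PSB-KD107 1, 2 and 4. In 6 of the 8 genes the lowest treated library was above the highest vehicle library, which held in that direction for 9.2% of all genes tested. Mvk overlapped between groups by 1 library and Ggps1 overlapped fully. The median log2 fold change was 1.43 over the members and -0.00074 over all genes tested, of which 49.9% had a log2 fold change above 0 and 5.4% above 1. No member passed at an adjusted p-value of 0.05 in edgeR's quasi-likelihood test, nor did any other gene (0.0% called, smallest adjusted p = 0.0738). Before adjustment, 7 of 8 members were higher and 0 lower at p under 0.05, against 6.47% and 2.93% of all genes (9.4% in either direction). DESeq2 called 5 of the 8 as higher after adjustment, against 2.48% of all genes in that direction, 0.93% in the other and 3.41% in either. With vehicle 2, vehicle 4 or PSB-KD107 1 left out it called 1 member, Idi1 each time, among 184, 195 and 291 genes in all. With vehicle 1 left out it called 7 members among 648 genes in all. Shares of all genes were not computed for these fits. An exact permutation test of 3 against 3 libraries cannot go below p = 0.1.

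**Figure D1:**
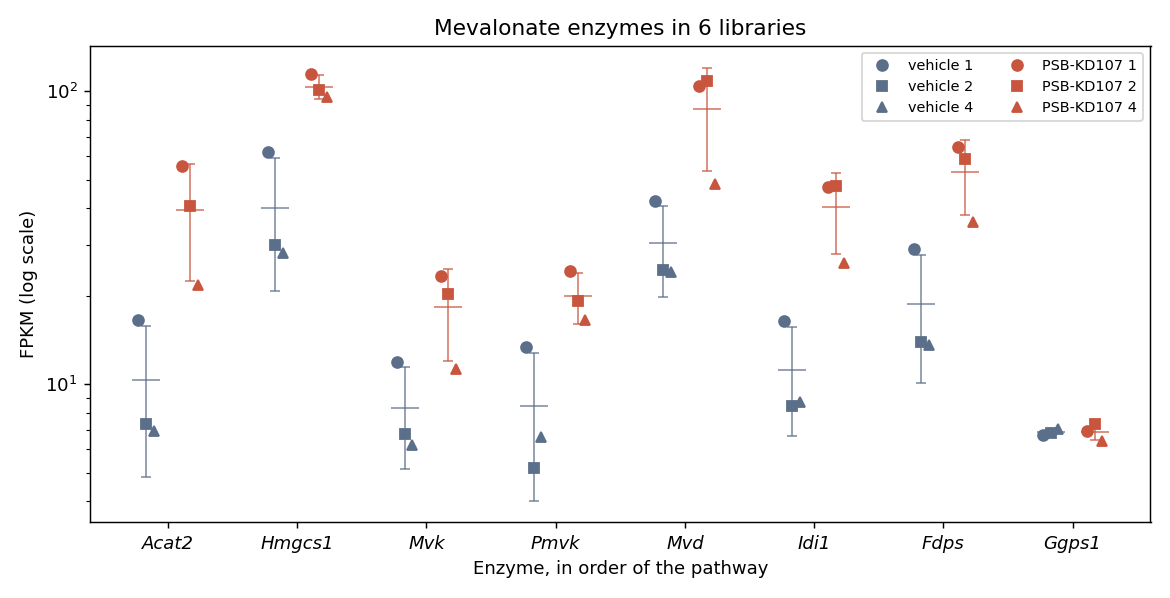
FPKM on a log axis for each mevalonate enzyme, in the order of the pathway, in each vehicle (blue) and PSB-KD107 (red) library, with the mean (horizontal line) and SD of 3 libraries. Vehicle 1 is the highest vehicle point of every enzyme except Ggps1, whose 6 points lie between 6.42 and 7.32 FPKM.

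Acat2 and Hmgcs1 catalyse the entry steps. Acat2 (ENSMUSG00000023832, chr17:12942890-12960747, minus strand) encodes the cytosolic thiolase that joins acetyl-CoA units to acetoacetyl-CoA. It had 42.3, 18.7 and 17.7 CPM in vehicle 1, 2 and 4 and 141.7, 103.8 and 55.6 CPM in PSB-KD107 1, 2 and 4. All treated libraries were above all vehicle libraries, and the lowest of them exceeded the highest vehicle library by 1.31 times. The log2 fold change was 1.94 (SE 0.48), a fold change of 3.82 with a 95% interval from 1.70 to 8.60, the largest of the 8 members. The adjusted p-value was 0.297 in edgeR and 0.00331 in DESeq2.

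Hmgcs1 (ENSMUSG00000093930, chr13:119690379-119708260, plus strand) encodes the cytosolic synthase that makes HMG-CoA. Its values were 286.0, 137.3 and 129.2 CPM in vehicle and 526.6, 464.1 and 441.4 CPM with PSB-KD107. Treated libraries were close to each other, with a coefficient of variation of 9.25%, whereas vehicle libraries varied by 48.0%, with vehicle 1 well above the other vehicle libraries. On the log2 scale the difference was 1.37 (SE 0.33), a fold change of 2.59 with a 95% interval from 1.49 to 4.51. The adjusted p-value was 0.281 in edgeR and 0.00463 in DESeq2.

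The next enzymes phosphorylate mevalonate and decarboxylate it. Mvk (ENSMUSG00000041939, chr5:114444269-114460591, plus strand), the mevalonate kinase, had 31.9, 18.1 and 16.6 CPM in vehicle and 62.8, 54.6 and 30.2 CPM with PSB-KD107. PSB-KD107 4 lay just below vehicle 1, so the groups overlapped, and the exact permutation p-value was 0.2. The log2 fold change was 1.15 (SE 0.36), or 2.22 times with a 95% interval from 1.20 to 4.10, the smallest of the 7 enzymes that were higher. Neither edgeR (adjusted p = 0.416) nor DESeq2 (adjusted p = 0.0787) called it.

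Pmvk (ENSMUSG00000027952, chr3:89454541-89469013, plus strand) encodes phosphomevalonate kinase, which adds the next phosphate. It had the fewest counts of the members in total, with 311 to 2099 per library. Its vehicle libraries had 23.0, 8.91 and 11.3 CPM and its treated libraries 41.7, 32.9 and 28.5 CPM, without overlap. This was a log2 fold change of 1.25 (SE 0.38), or 2.38 times with a 95% interval from 1.25 to 4.52. It missed the adjusted threshold in both tests (adjusted p = 0.405 in edgeR and 0.0587 in DESeq2).

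Mvd (ENSMUSG00000006517, chr8:122433601-122443422, minus strand) encodes the decarboxylase that releases isopentenyl diphosphate. Vehicle libraries had 78.6, 45.5 and 44.9 CPM and PSB-KD107 libraries 193.4, 202.1 and 89.7 CPM. PSB-KD107 4 was well below the other treated libraries and exceeded vehicle 1 by only 1.14 times. The log2 fold change was 1.52 (SE 0.38), or 2.87 times with a 95% interval from 1.51 to 5.45. The adjusted p-value was 0.299 in edgeR and 0.00608 in DESeq2.

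Idi1 (ENSMUSG00000058258, chr13:8885501-8892451, plus strand) encodes the isomerase that interconverts isopentenyl and dimethylallyl diphosphate. It had 57.7, 29.7 and 30.4 CPM in vehicle and 165.7, 166.4 and 91.1 CPM with PSB-KD107. Here the separation of the groups was the widest of the members, with the lowest treated library 1.58 times the highest vehicle library. The difference was 1.85 on the log2 scale (SE 0.36), or 3.59 times with a 95% interval from 1.95 to 6.61. Idi1 had the smallest p-value of the members and ranked 125 among all genes tested, with an adjusted p-value of 0.228 in edgeR and 1.25e-04 in DESeq2.

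The prenyl chain synthases differed from each other. Fdps (ENSMUSG00000059743, chr3:89093588-89101959, minus strand) makes farnesyl diphosphate. Its values were 122.0, 58.7 and 57.4 CPM in vehicle and 272.0, 247.3 and 151.2 CPM with PSB-KD107, without overlap. The log2 fold change was 1.49 (SE 0.38), or 2.82 times with a 95% interval from 1.5 to 5.31, with an adjusted p-value of 0.307 in edgeR and 0.00667 in DESeq2. A same-strand gene model, Gm43738, shares 1124 of the 4208 exon bases of Fdps and is listed at 0 counts in all libraries.

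Ggps1 (ENSMUSG00000021302, chr13:14050659-14063488, minus strand) extends farnesyl to geranylgeranyl diphosphate, a lipid anchor of small GTPases. It had 31.7, 32.3 and 33.2 CPM in vehicle and 32.7, 34.6 and 30.3 CPM with PSB-KD107. These 6 values were interleaved and varied by 2.32% within vehicle and 6.61% within the treated group. On the log2 scale the groups differed by 0.01 (SE 0.10), and its 95% interval, from 0.848 to 1.19 times, leaves out the folds of all the other members (edgeR adjusted p = 0.987, exact permutation p = 1). Ggps1 shares 257 of its 4721 exon bases with Arid4b on the opposite strand, which had 15337 counts over the 6 libraries. How the counting used strand is not given in the sources used here.

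The difference between the synthases was tested within libraries. The log2 ratio of Fdps to Ggps1 counts was 1.94, 0.86 and 0.79 in vehicle and 3.05, 2.84 and 2.32 with PSB-KD107, with no overlap. Its mean was higher with PSB-KD107 by 1.54 on the log2 scale, and the exact permutation p-value was 0.1 (0.1 after adjustment over 2 ratios), the smallest that the design can give. Acat2 was set against Acat1, the mitochondrial thiolase of ketone body and isoleucine metabolism. Acat1 had 154.1 ± 6.52 CPM in vehicle and 148.5 ± 24.2 CPM with PSB-KD107 (SD, n = 3), and its groups overlapped. The log2 ratio of Acat2 to Acat1 went from -2.68 ± 0.69 to -0.65 ± 0.89, a difference of 2.02 with no overlap and an exact permutation p-value of 0.1. Acat3, a close copy of Acat2, had 4 to 18 counts per library and Idi2, the muscle paralog of Idi1, had 1 to 3 counts, so neither was tested.

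**Figure D2:**
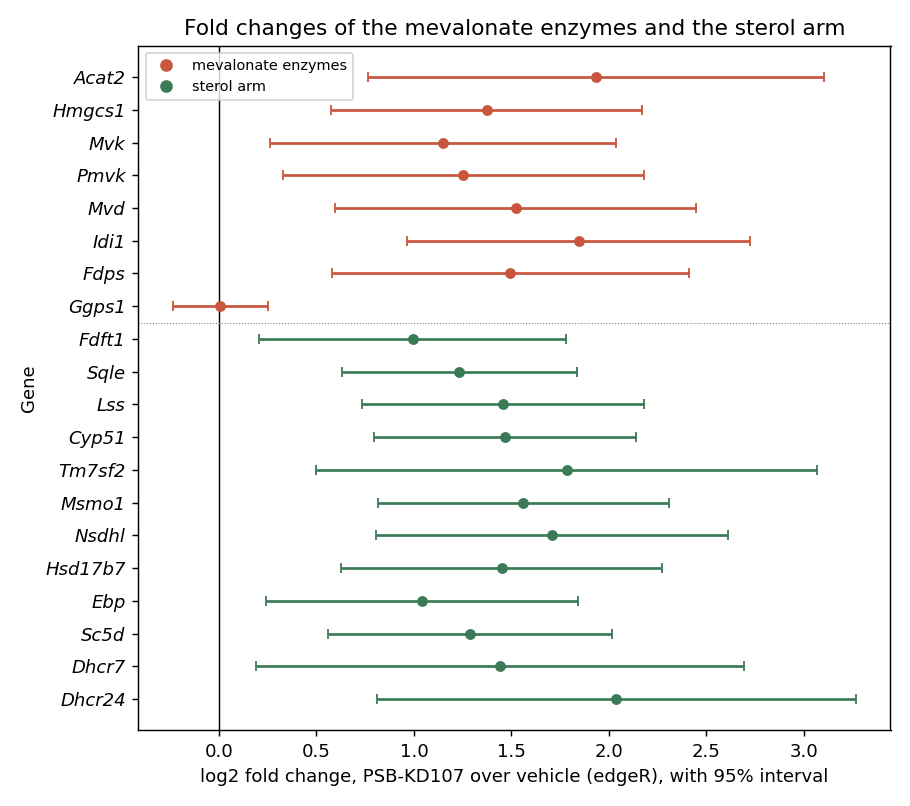
Log2 fold change of PSB-KD107 over vehicle by edgeR for the mevalonate enzymes (red) and the sterol arm (green), with 95% intervals over 3 libraries per group. The interval of Ggps1 spans 0, and those of the other 7 enzymes and of all 12 sterol genes lie above it.

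Levels can be compared between genes only per length, so CPM were divided by the kilobases of merged exons (FPKM). In vehicle the order was Hmgcs1 with 40.1 ± 19.2 FPKM, Mvd with 30.3 ± 10.4, Fdps with 18.9 ± 8.77, Idi1 with 11.2 ± 4.55, Acat2 with 10.3 ± 5.48, Pmvk with 8.41 ± 4.40, Mvk with 8.30 ± 3.14 and Ggps1 with 6.86 ± 0.16 (SD, n = 3). Each neighbour in that order overlapped the next over the 3 libraries. Within a library, Hmgcs1 was above Mvd, Mvd above Fdps, Fdps above Idi1 and Acat2 above Pmvk in all 3. Idi1 was above Acat2 and Pmvk above Mvk in 2 libraries, and Mvk above Ggps1 in 1. The last places rest on vehicle 1, since in vehicle 2 and 4 Ggps1, with 6.85 and 7.02 FPKM, was above Mvk, with 6.77 and 6.22 FPKM, and Pmvk, with 5.20 and 6.61 FPKM. With PSB-KD107 the order of the means over all 3 libraries was as in vehicle, from 103.9 ± 9.61 FPKM for Hmgcs1 and 87.0 ± 33.6 for Mvd, through 53.1 ± 15.2 for Fdps, 40.3 ± 12.4 for Idi1, 39.4 ± 17.0 for Acat2, 20.1 ± 3.93 for Pmvk and 18.4 ± 6.34 for Mvk, to 6.89 ± 0.46 for Ggps1. Mvk and Ggps1 were the one pair of neighbours that no longer overlapped. Of the summed FPKM of the members, Ggps1 made up 5.65% in vehicle and 1.94% with PSB-KD107, Acat2 7.45% and 10.4%, Idi1 8.36% and 10.8%, and Hmgcs1 29.4% and 29.2%. With the length of the longest transcript in place of merged exons, Acat2 and Pmvk changed places in vehicle.

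Beyond the difference between groups, the 7 enzymes other than Ggps1 varied together from library to library. Vehicle 1 exceeded the mean of vehicle 2 and 4 in all 7, by 0.80 to 1.22 on the log2 scale (median 1.07, against 0.0046 over all genes tested). PSB-KD107 1 exceeded the mean of PSB-KD107 2 and 4 in all 7 as well, by 0.22 to 0.90. PSB-KD107 4 was the lowest treated library for each of the 7, and stood above vehicle 1 in 6 of 7, with log2 differences from -0.08 to 0.66. Taking libraries of the same number, PSB-KD107 was higher than vehicle in all 7 enzymes by 0.86 to 1.74 for number 1, 1.59 to 2.49 for number 2 and 0.86 to 1.77 for number 4. The part of sequencing depth, which was greatest in the libraries numbered 1, was not tested. When vehicle 1 or PSB-KD107 4 was left out, a recount added after seeing the data, 7 members did not overlap, against 19.1% and 15.2% of all genes. This outcome was fixed by the choice, since these were the highest vehicle and the lowest treated library of the 7 enzymes. With any other library left out, 6 members did not overlap, against 10.7% to 16.2% of all genes.

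**Figure D3:**
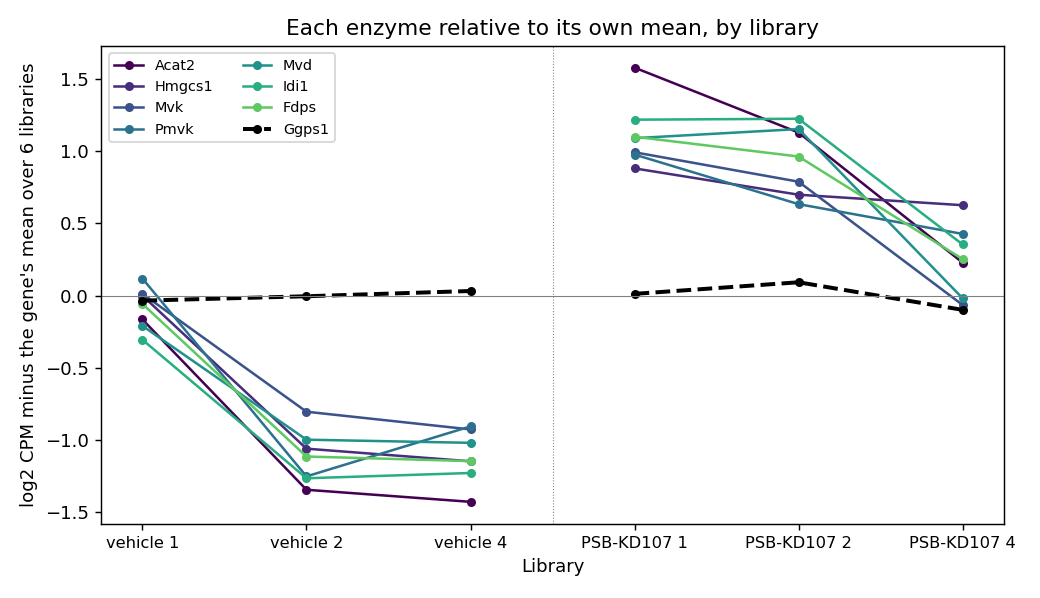
Log2 CPM of each enzyme minus its own mean over the 6 libraries, with a line joining the libraries of a group for each enzyme and Ggps1 dashed. The 7 solid lines lie close together and are higher in vehicle 1 than in vehicle 2 and 4, and Ggps1 stays near 0.

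Pearson correlations of log2 CPM over the 6 libraries were between 0.918 and 0.996 for the 21 pairs of enzymes without Ggps1 (median 0.974). After the group means were removed they were between 0.674 and 0.991 (median 0.938). Over the 7 pairs with Ggps1 they were between -0.065 and 0.326, and between -0.214 and 0.555 after the group means were removed. The points share libraries, and these values are a description of 6 libraries.

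Among 8902 other genes with a mean of at least 10 CPM, those whose log2 CPM followed the mean profile of the members most closely over the 6 libraries were Sc5d, Hsd17b7, Bad, Mmab, Nsdhl, Pcyt2, Myo1e, Msmo1, Rad9a and Sqle, with Pearson's r from 0.9993 down to 0.9857. Of these, Sc5d, Hsd17b7, Nsdhl, Msmo1 and Sqle encode enzymes of sterol synthesis, and Pcyt2 an enzyme of phosphatidylethanolamine synthesis. Pearson's r takes no account of the size of a change. The log2 fold changes of Bad, Myo1e and Rad9a were small, at 0.14 (SE 0.10), 0.43 (SE 0.11) and 0.50 (SE 0.18). In all, 74 of the genes had an r of at least 0.95, while Ggps1 itself had 0.160. Mmab, which faces Mvk across the stretch printed above, had 26.4, 20.0 and 18.5 CPM in vehicle and 40.1, 36.9 and 31.1 CPM with PSB-KD107, without overlap. Its log2 fold change was 0.74 (SE 0.18), smaller than that of Mvk, with an adjusted p-value of 0.29 in edgeR and 0.0225 in DESeq2. Tcp1, a chaperonin gene that neighbours Acat2, had 454.3 ± 22.8 CPM in vehicle and 442.6 ± 27.2 CPM with PSB-KD107 (SD, n = 3).

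The sterol arm takes farnesyl diphosphate on to cholesterol. All 12 of its listed genes were higher with PSB-KD107, by 0.99 to 2.04 on the log2 scale with a median of 1.45, and 11 of 12 did not overlap between groups, against 9.2% of all genes. Before adjustment 12 of 12 were higher at p under 0.05 in edgeR (6.47% of all genes), none after adjustment, and DESeq2 called 9 of 12 (2.48% of all genes). Cyp51, the lanosterol demethylase, had 248.3, 161.7 and 158.7 CPM in vehicle and 556.6, 648.7 and 368.4 CPM with PSB-KD107. This gave a log2 fold change of 1.47 (SE 0.28, edgeR adjusted p = 0.21). Msmo1, the methylsterol monooxygenase, had 96.0 ± 34.3 CPM in vehicle and 283.1 ± 70.5 CPM with PSB-KD107, a log2 fold change of 1.56 (SE 0.31, edgeR adjusted p = 0.228). Vehicle 1 was also above vehicle 2 and 4 in all 12, by a median of 0.87 on the log2 scale.

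The genes listed for sterol control did not share a direction. Of 8 genes, 4 had higher and 4 lower means, and the median over the list was 0.03 on the log2 scale. Before adjustment 3 had a higher and 1 a lower level at p under 0.05 in edgeR, against 6.47% and 2.93% of all genes, and neither edgeR nor DESeq2 called any after adjustment. Srebf2, which encodes SREBP-2 and is named here after its values were seen, had 360.1 ± 36.2 CPM in vehicle and 350.2 ± 58.4 CPM with PSB-KD107, with overlap. Insig1, which retains SREBP in the endoplasmic reticulum and is itself a known SREBP target, had 181.8, 71.4 and 65.9 CPM in vehicle and 365.5, 274.7 and 170.6 CPM with PSB-KD107. PSB-KD107 4 fell below vehicle 1 there, and the log2 fold change was 1.35 (SE 0.48, edgeR adjusted p = 0.467). Stard4, also named after its values were seen, had 46.2, 12.8 and 12.1 CPM in vehicle. With PSB-KD107 it had 101.4, 58.0 and 55.5 CPM, without overlap. Its log2 fold change of 1.60 (SE 0.59, edgeR adjusted p = 0.487) was the largest of the list. Mbtps1, the protease that first cleaves SREBP, had 130.4 ± 15.8 CPM in vehicle and 94.4 ± 10.3 CPM with PSB-KD107, without overlap, a log2 fold change of -0.47 (SE 0.13, edgeR adjusted p = 0.374). Mbtps2, of the same list and named after its values were seen, went the other way without overlap. It had 37.7 ± 1.84 CPM in vehicle and 45.1 ± 2.42 CPM with PSB-KD107, a log2 fold change of 0.26 (SE 0.10, edgeR adjusted p = 0.488).

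Upstream of the mevalonate arm, all 5 genes of cytosolic acetyl-CoA supply and use had higher means (median of 1.08 on the log2 scale), and 3 passed at an unadjusted p-value under 0.05 in edgeR (6.47% of all genes) and after adjustment in DESeq2 (2.48% of all genes). Acss2, the cytosolic acetyl-CoA synthetase, had 42.1, 31.6 and 30.6 CPM in vehicle and 125.3, 96.8 and 68.4 CPM with PSB-KD107. This gave a log2 fold change of 1.48 (SE 0.25, edgeR adjusted p = 0.184). Acaca, the carboxylase that diverts acetyl-CoA to fatty acids, had 40.3 ± 8.57 and 102.0 ± 30.7 CPM, a log2 fold change of 1.34 (SE 0.26, edgeR adjusted p = 0.228).

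Downstream, among the 18 genes that use isoprenoids for protein prenylation, ubiquinone or dolichol, 10 had higher and 8 lower means and their median was 0.03 on the log2 scale. Before adjustment 2 of 18 had a higher and 1 a lower level at p under 0.05 in edgeR, against 6.47% and 2.93% of all genes, and none was called after adjustment by edgeR or DESeq2. The smallest p-value was that of Nus1, a subunit of the dolichol-making cis-prenyltransferase, with 69.9 ± 1.89 CPM in vehicle and 89.3 ± 7.31 CPM with PSB-KD107, a log2 fold change of 0.35 (SE 0.09, edgeR adjusted p = 0.336). Chm, the Rab escort protein that presents Rab GTPases for geranylgeranylation, had 27.7 ± 2.22 and 33.9 ± 0.10 CPM, a log2 fold change of 0.29 (SE 0.10, edgeR adjusted p = 0.467).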

How the data were processed

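RNA of mdx myoblasts was sequenced by the authors as poly(A) libraries in paired-end mode and aligned with STAR to the mouse genome (mm10 in the submitters' processing notes). The deposited values are raw counts per gene, made by the authors without normalization. The program that counted them, its annotation and its strand setting are not given in the sources used here. Groups came from the sample records and column names, and 0 columns were left unmapped. The libraries numbered 4 were tied to a group but to no single record. Replicates are described as cells of different mice, and p-values measure only the spread between these libraries.

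Counts were tested in R 4.3.3 with edgeR 4.0.16 (filterByExpr, TMM factors, quasi-likelihood test, Benjamini-Hochberg adjustment over 14165 genes, threshold 0.05). DESeq2 1.42.0, limma-voom (limma 3.58.1), RLE factors, other filters, a replicate block and left-out libraries were alternatives. Exact permutation tests were two-sided. Log2 ratios used 1 added count. The unit FPKM was computed from TMM CPM and GENCODE M21 exons. The scripts were tested on simulated data.

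The members and lists were chosen with earlier results of these data known. Named were every member, its paralogs and neighbours, the 2 genes of smallest p-value in each list and the 10 genes of nearest profile. Itgam and Mymk, from the marker lists, were not analysed here. Sequences are those of RefSeq on GRCm38.p6. Fdps was not matched to a promoter window. Some genes of the route are not reported here.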

Additional observations from a re-analysis of the deposited data

How the results depend on the processing

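The direction of each of the 7 higher members was the same in all 23 fits run, with log2 fold changes between 0.91 (Mvk) and 2.46 (Acat2), while Ggps1 stayed between -0.046 and 0.072. The number of genes called, 0 in edgeR, was 8 with no filter on low counts, 480 in DESeq2 and 0 with RLE factors, an FPKM filter, limma-voom, the robust fit or 4 libraries. The number of members called, 0 in edgeR, was 5 in DESeq2. With single libraries left out, edgeR called 0 genes and 0 members, and 5 to 7 members were higher at an unadjusted p-value under 0.05 (5 without vehicle 4 or PSB-KD107 1). The share of all genes higher at that threshold was computed for the edgeR fit of all 6 libraries alone (6.47%). DESeq2 then called 648 genes and 7 members without vehicle 1, 184 and 1 without vehicle 2, 195 and 1 without vehicle 4, 291 and 1 without PSB-KD107 1, 815 and 5 without PSB-KD107 2, and 714 and 6 without PSB-KD107 4. The members' median log2 fold change was 1.24 to 1.83 in edgeR and 1.22 to 1.83 in DESeq2, highest without vehicle 1. Over all fits, 9 to 12 genes of the sterol arm, 0 to 3 of sterol control, 3 to 5 of acetyl-CoA supply and 0 to 4 isoprenoid users were higher at p under 0.05 before adjustment. The 5 and the 4 came only from the replicate block on 4 libraries, the fit that called 2582 genes. No share of all genes was computed at that threshold for the alternative fits, so these counts cannot be set against one. The cause of the differences between fits was not tested. Library numbers did not establish a pairing. Across 14165 genes, the deviations of same-numbered libraries correlated at 0.629, 0.494 and -0.127, and vehicle 4 correlated best with PSB-KD107 2, at 0.632. The mean correlation was 0.332 for same-numbered and -0.171 for differently numbered libraries. Deviations cancel within a group, so the second mean largely follows from the first and adds no separate evidence. Whether libraries of one number share a mouse was not tested. With the replicate number as a block, edgeR called 0 genes and 0 members over 6 libraries, DESeq2 called 633 genes and 7 members, and edgeR on the 4 libraries numbered 1 and 2, with 1 residual degree of freedom, called 2582 genes and 7 members. In edgeR over 6 libraries, the SE of the Acat2 log2 fold change was 0.48 without the block and 0.20 with it. That of Mvk was 0.36 and 0.18, and that of Ggps1 was 0.10 in both. The pseudocount of the ratios changed no call.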

Other observations

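Of 17 genes listed under prenylated proteins, small GTPases and lamins, 10 had higher and 7 lower mean transcript levels with PSB-KD107. The median over the list was 0.07 on the log2 scale. Before adjustment 0 had a higher and 3 a lower level at p under 0.05 in edgeR, against 6.47% and 2.93% of all genes, none after adjustment, and DESeq2 called 2 as lower, against 0.93% of all genes. Both encode lamins of the nuclear envelope. Lmnb2 had 242.3, 285.2 and 364.3 CPM in vehicle and 119.0, 170.0 and 116.4 CPM with PSB-KD107, without overlap, a log2 fold change of -1.14 (SE 0.22), with an adjusted p-value of 0.216 in edgeR and 2.14e-04 in DESeq2. Lmnb1 had 33.8 ± 4.20 CPM in vehicle and 19.7 ± 3.40 CPM with PSB-KD107 (SD, n = 3), a log2 fold change of -0.78 (SE 0.17), with an adjusted p-value of 0.253 in edgeR and 0.00523 in DESeq2.

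HMG-CoA is also a node of ketone body and leucine metabolism in mitochondria. Of 8 genes of these routes 7 were tested, 2 had higher and 5 lower means, and the median log2 fold change was -0.05. Oxct1, which activates acetoacetate for use, had 124.9, 83.9 and 76.4 CPM in vehicle and 158.1, 107.5 and 188.3 CPM with PSB-KD107, and the groups overlapped (log2 fold change 0.67, SE 0.27, edgeR adjusted p = 0.524). Bdh1, the hydroxybutyrate dehydrogenase, was near the floor of detection, at 0.207 ± 0.070 and 0.517 ± 0.327 CPM (SD, n = 3).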
